A study of Danio rerio with 15 samples.

Results

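The clustered protocadherins of the zebrafish larva were described in whole bodies exposed to perfluorooctanesulfonic acid (PFOS), a persistent surfactant. The members are the genes whose symbol begins with pcdh1g, pcdh2g, pcdh2ab or pcdh1a followed by a digit, and there are 34 of them among 32520 genes in the deposited table. Their 73 annotated transcripts stand among 59876. The larvae were AB wild type at 120 h post-fertilization. They fall into an untreated control and PFOS at 0.1, 1, 5 and 10 µM, with 3 RNA libraries in each of the 5 groups. The labels give neither the start of exposure nor a solvent, and leave unsaid if the 3 libraries of a group stand for different clutches or treatments. The p-values therefore cover library-to-library spread only, and that spread may be technical. The series title places the work in the developmental neurotoxicity of PFOS.

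Clustered protocadherins are homophilic adhesion proteins of the neuronal surface. Each isoform of the alpha and gamma clusters is built from its own large variable exon, which carries the cadherin repeats, joined to a set of constant exons shared by the whole cluster. In mouse, neurons choose a few variable exons by promoter choice under CTCF and cohesin, and the resulting combinations mediate self-avoidance of neurites and neuronal survival. Zebrafish carry duplicated clusters, named pcdh1 and pcdh2. Genes called C-type have, in mouse, a more constant use across neurons than the other isoforms.

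The 34 members lie in a pair of runs. On the plus strand of chromosome 10, 22 members span positions 21559605 to 21820133, namely 3 pcdh1a genes followed by 19 pcdh1g genes. On the minus strand of chromosome 14, 12 members span 1887677 to 2327825, namely 11 pcdh2ab genes and the single pcdh2g member, pcdh2g28. These are the deposited coordinates, and no source used here names their genome build. The annotation shows the shared constant end directly: 8 pcdh1g genes end at 21820057 and another 6 at 21820133, while 7 pcdh2ab genes end at 2123123. Reads from a constant exon therefore fit many members at once, and how the deposited counts treat such reads is not stated in the labels or headers. The symbols pcdh2ab9 and pcdh2ab2 each name 2 gene identifiers, which are kept apart here by identifier. Other genes of these clusters, such as pcdh2ac, carry symbols outside the rule and are not members.

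Library totals ran from 11956657 to 19978125 estimated counts, and the members together took 0.0584% to 0.0782% of them. Of the 34 members, 33 passed the filter on low counts and were tested. The exception was pcdh2ab3, with a mean of 3.20 counts per library. Among the tested members, 18 had a mean below 100 counts.

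In control larvae the level per length was set by a few members. pcdh2g28 stood highest at 49.5 ± 3.54 TPM (transcript counts scaled for length and library, mean ± SD, n = 3), followed by pcdh1g26 at 31.0 ± 2.68 TPM and pcdh1a6 at 22.4 ± 1.55 TPM. The libraries of these 3 did not overlap each other or those of the next in order, pcdh1g33, at 13.0 ± 2.46 TPM. From there the order was unclear: pcdh1gc5 at 12.6 ± 1.82 TPM, pcdh1g9 at 10.9 ± 2.50 TPM, pcdh2ab9 (ENSDARG00000101318) at 10.6 ± 3.48 TPM, pcdh1g29 at 10.2 ± 3.54 TPM and pcdh1g30 at 10.1 ± 2.67 TPM each overlapped the one before. pcdh1g30 did not overlap the next, pcdh1g31, at 5.86 to 8.07 TPM. Only 6 of the 33 neighbouring pairs in the control order had libraries that did not overlap. Over the 12 libraries of control and 0.1 to 5 µM, pcdh2g28 supplied 21.4% of the summed mean TPM of the members and the leading 3 supplied 44.9%, while 21 of the 34 had a mean below 3 TPM. The order per length is not the order of counts: pcdh1g26 and pcdh1a6, with lengths of 1243 and 1903 bases as recovered from the deposited RPKM, had mean estimated counts of 399.5 and 489.7, below the 540.3 of pcdh1g33, which is 4234 bases long by the same measure.

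**Figure D1:**
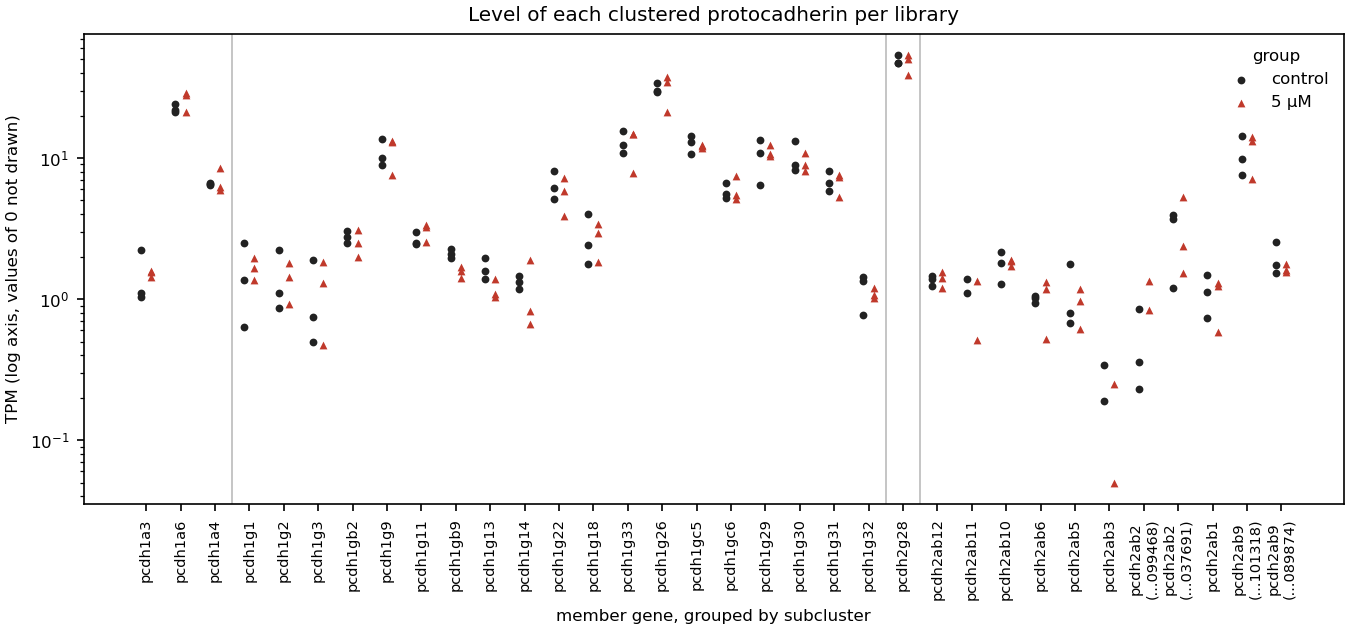
TPM of each member in the 3 control libraries (dots) and the 3 libraries at 5 µM (triangles), on a log axis, with members grouped as pcdh1a, pcdh1g, pcdh2g and pcdh2ab. pcdh2g28 is highest at about 49.5 TPM in control, and pcdh2ab9 (ENSDARG00000101318) is the highest pcdh2ab gene, at 10.6 TPM on the control mean.

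A high symbol need not be 1 isoform. pcdh2g28 has 11 annotated transcripts with 10 separate 5′ ends, so the symbol gathers several variable exons. One of them, pcdh2g28-209, held 79.0% of its transcript counts. pcdh1g9 is a similar case, because pcdh1g9-204, with 60.1% of the counts, starts at 21780250, far from the 21701551 of the gene's own start. By contrast pcdh1g33 has a single transcript, and the counts of pcdh1g31 are all in pcdh1g31-201.

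At 0.1, 1 and 5 µM no member differed from control in edgeR's quasi-likelihood test at an adjusted p below 0.05 (0 of 33 at each dose). The background was the same, with 0% of 21477 genes called at each of these doses. At an unadjusted p below 0.05 in that test there were 2, 0 and 1 members. The share of all genes at that level is not given here, so these counts are not read as a result. DESeq2 called 0 at each dose. Median log2 fold changes of the members were 0.01, -0.03 and 0.02. Libraries lay wholly below control for 1, 0 and 1 members at the 3 doses, beside 2.85%, 3.46% and 3.74% of all genes, and wholly above for 0 members at each, beside 2.63%, 3.27% and 3.41%. At 0.1 µM the nearest, besides pcdh2ab11, was pcdh2ab9 (ENSDARG00000101318), at 0.65 ± 0.30. The smallest p-values at 5 µM belonged to pcdh1g13, at -0.44 ± 0.21 (log2, SE) and an adjusted p of 0.999, and to pcdh1gb9, at -0.38 ± 0.18 with the same adjusted p. At 1 µM, pcdh1g22 was nearest, at -0.38 ± 0.22 and an adjusted p of 1. No single member was called below 10 µM, and with 3 libraries a group changes can be missed. In simulated counts with 200 changed genes, the same fit recovered 26.7% of 1.5-fold and 60.8% of 2-fold changes at 10 µM against control. No lower dose was simulated, and in the data 3098 genes were called at 10 µM, so these shares are a rough guide only. The family was not tested as a set.

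At 10 µM, 4 of the 33 tested members were lower than in control and none was higher. The background was 14.4% of all genes called in either direction and 6.65% called lower, and 4 of 33 is read against those shares. All 4 belong to pcdh1g: pcdh1g33, pcdh1g30, pcdh1g9 and pcdh1g31. The 6 members called in any test all had a mean of 296.5 counts or more. The remaining 15 pcdh1g genes, the 3 pcdh1a genes, pcdh2g28 and the 10 tested pcdh2ab genes did not pass.

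pcdh1g33 (ENSDARG00000099035) showed the largest difference among the called members. Its CPM (counts scaled to the size of the library) were 42.7, 36.6 and 51.9 in control, 41.4, 40.8 and 41.4 at 0.1 µM, 35.3, 41.1 and 42.0 at 1 µM, 29.8, 49.9 and 49.5 at 5 µM, and 19.2, 25.8 and 26.9 at 10 µM. All 3 libraries at 10 µM lay below every other library of the study, while the other groups overlapped one another. The fall was 1.82-fold, a log2 fold change of -0.87 ± 0.18 (SE), with an adjusted p of 0.00619 in edgeR's test. It passed the threshold without each of the 6 control and 10 µM libraries in turn, with adjusted p from 0.00645 to 0.0418.

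pcdh1g31 (ENSDARG00000100670) read 22.4, 19.3 and 26.0 CPM in control, 20.1, 21.9 and 29.3 at 0.1 µM, 20.9, 20.8 and 21.3 at 1 µM, 19.5, 24.8 and 24.1 at 5 µM, and 14.8, 13.8 and 16.8 at 10 µM. Again the 3 libraries at 10 µM were the lowest of the 15. The log2 fold change was -0.57 ± 0.15, a 1.49-fold fall, with an adjusted p of 0.0188. That call was lost without control library 3 or without 10 µM library 2 or 3, with adjusted p from 0.0149 to 0.0908 over the 6 fits.

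pcdh1g9 (ENSDARG00000057519) measured 32.6, 29.0 and 44.5 CPM in control, 33.1, 37.2 and 44.1 at 0.1 µM, 35.0, 37.3 and 38.8 at 1 µM, 26.8, 43.5 and 41.9 at 5 µM, and 24.4, 19.0 and 26.2 at 10 µM. The 10 µM libraries lay below all others, although 5 µM library 1, at 26.8, came close. The log2 fold change was -0.61 ± 0.19, a 1.52-fold fall, with an adjusted p of 0.0415. It passed in 1 of the 6 fits that leave out a library, the one without control library 2, with adjusted p from 0.0294 to 0.199.

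pcdh1g30 (ENSDARG00000101865) gave 44.0, 27.1 and 28.7 CPM in control, 31.7, 24.0 and 23.4 at 0.1 µM, 29.3, 21.5 and 30.6 at 1 µM, 40.1, 26.6 and 28.7 at 5 µM, and 17.2, 23.5 and 19.5 at 10 µM. The 10 µM libraries were below all controls but overlapped the groups at 0.1 and 1 µM, and control library 1 stood well above the other controls. The log2 fold change was -0.73 ± 0.21, a 1.65-fold fall, with an adjusted p of 0.0302. The call was lost without control library 1 or without 10 µM library 2 or 4, with adjusted p from 0.0244 to 0.146 over the 6 fits.

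**Figure D2:**
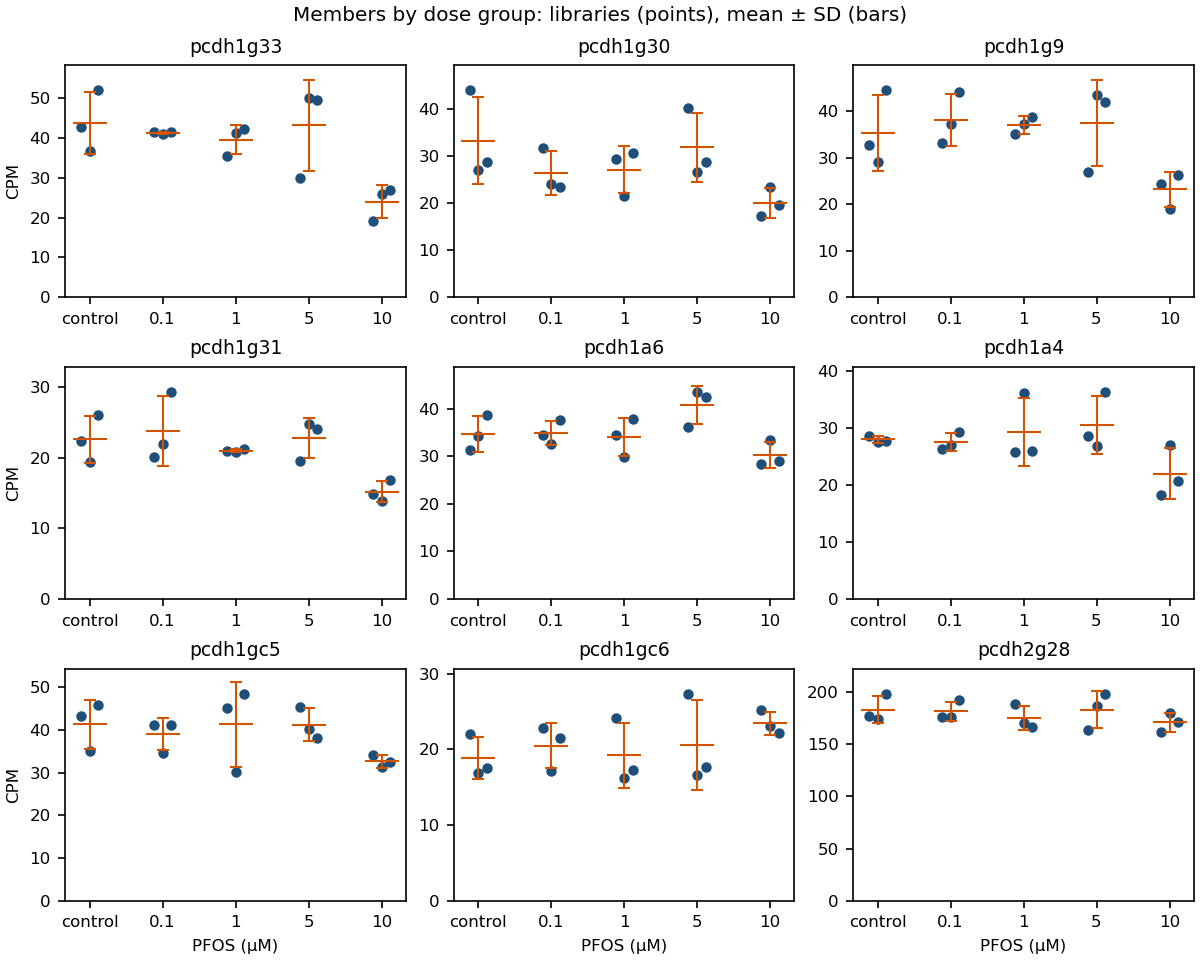
CPM of 9 members by dose group, with 1 point per library and the mean ± SD (n = 3) as bars on axes that start at 0. Every member drawn except pcdh1gc6 has its lowest group mean at 10 µM, the called pcdh1g33, pcdh1g30, pcdh1g9 and pcdh1g31 among them. pcdh1gc6 has its highest there, and pcdh1a6 has its highest at 5 µM.

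Across the whole family the values at 10 µM leaned downward. The log2 fold change was below 0 for 27 of the 33 tested members, with a median of -0.20, beside a median of -0.01 over all genes, of which 51.0% were below 0. Libraries at 10 µM lay wholly below control for 10 members and wholly above for 2, against a background of 18.3% and 18.6% of all genes. The medians were -0.20 for pcdh1a, -0.26 for pcdh1g and -0.21 for the tested pcdh2ab genes. These are descriptions of a chosen list, and 29 of the 33 did not pass the test.

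**Figure D3:**
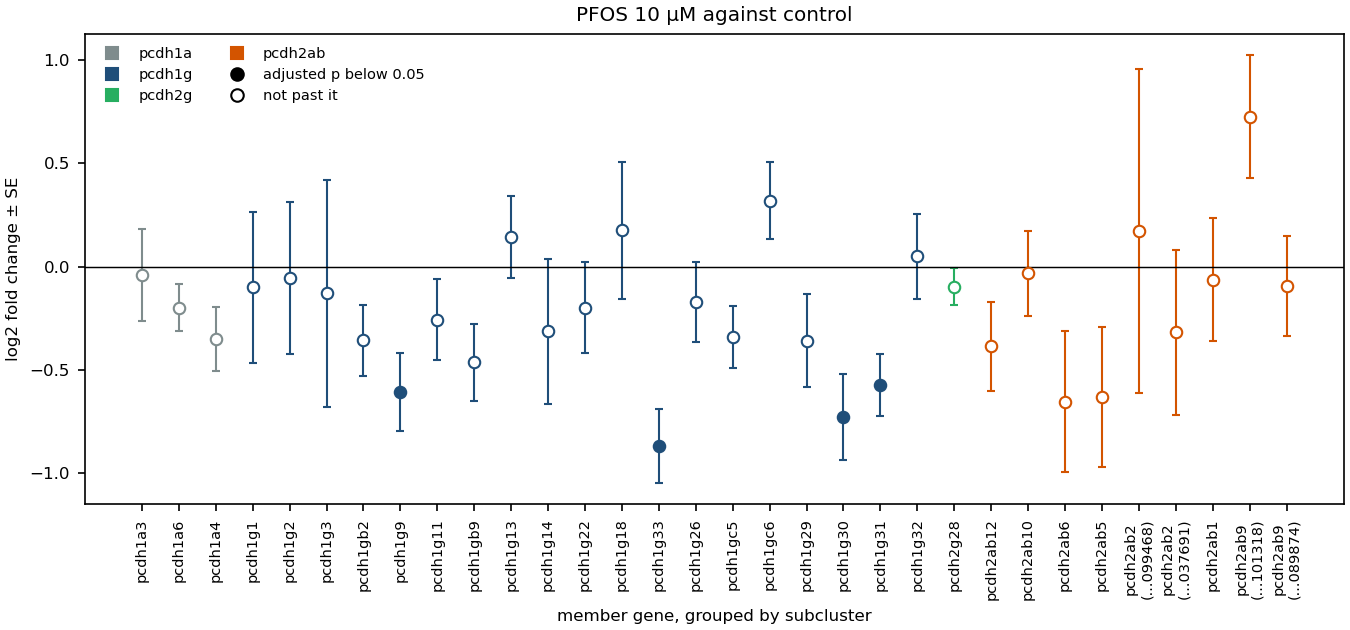
Log2 fold change ± SE of the tested members at 10 µM against control, coloured by subcluster and filled where the adjusted p was below 0.05. pcdh2ab11, listed at 0 in all 10 µM libraries, is not drawn. The 4 filled points, from -0.87 to -0.57, are all pcdh1g genes.

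Summed over its 19 genes, pcdh1g came to 328.2 ± 36.5 CPM in control and 254.4 ± 4.88 CPM at 10 µM (mean ± SD, n = 3), which is 22.5% less. The 10 µM libraries, at 250.0 to 259.6 CPM, were all below the lowest control, at 287.0 CPM. The groups at 0.1, 1 and 5 µM had mean sums of 325.1, 309.0 and 333.2 CPM. The pcdh1a sum at 10 µM was 15.6% below control, with 68.6 ± 5.91 CPM in control and 57.9 ± 7.68 CPM at 10 µM, and its libraries overlapped. All members together gave 670.8 ± 67.2 CPM in control and 610.6 ± 13.1 CPM at 10 µM, again overlapping. The pcdh2ab sum was higher at 10 µM, at 127.2 CPM beside 91.0 CPM in control. That was not particular to 10 µM, since the means at 0.1, 1 and 5 µM were 125, 116 and 97.4 CPM. Within it, pcdh2ab9 (ENSDARG00000101318) had a mean of 63.9 CPM in control and 105.6 CPM at 10 µM. Of the 10 tested pcdh2ab genes, 8 had a log2 fold change below 0 and 2 above.

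The pan-neuronal markers moved alongside these values. Their 20 genes, among them elavl3, snap25a and stmn1b, were detected in every library and summed to 3190 to 3400 CPM in the controls and 2639 to 2818 CPM at 10 µM, which is 17.7% lower on the mean. Of the 20, 6 were called lower and 0 higher, beside 14.4% of all genes called in either direction and 6.65% called lower. A log2 fold change below 0 was found in 20 of 20 markers, with a median of -0.22. Those of smallest p were tuba1c, an alpha tubulin, at -0.62 ± 0.12 (adjusted p of 0.00506), and inaa, a neuronal intermediate filament, at -0.44 ± 0.09 (adjusted p of 0.00589). In whole larvae, fewer neurons and less protocadherin RNA per neuron cannot be told apart, and the part of neuronal content in the members' values was not tested. Glial markers, all 10 detected in every library, summed to 1307 to 1522 CPM in control and 1436 to 1465 CPM at 10 µM, yet 9 of the 10 had a log2 fold change below 0, with a median of -0.18. In that list glula, which makes glutamine in astroglia, rose by 0.61 ± 0.12 (adjusted p of 0.00424), and fabp7a, a radial glial lipid carrier, had a log2 fold change of -0.49 ± 0.10 (adjusted p of 0.00606).

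Against 5 µM, a comparison that uses no control library but the same 10 µM libraries, 6 of 33 members were lower at 10 µM and none higher, beside 15.4% of all genes called and 7.34% called lower. The 4 pcdh1g genes above were again called, with log2 fold changes of -0.84 ± 0.18 for pcdh1g33, -0.69 ± 0.19 for pcdh1g9, -0.66 ± 0.21 for pcdh1g30 and -0.59 ± 0.15 for pcdh1g31. Of the 6 fits that leave out a library, pcdh1g33 passed in 6, pcdh1g31 in 3, and pcdh1g9 and pcdh1g30 in 2 each, with adjusted p of up to 0.0468, 0.0662, 0.0853 and 0.167 in edgeR's test. To these were added pcdh1a6 and pcdh1a4, members of the alpha type. The members' median was -0.28, against 0.01 for all genes. In the same comparison 20 of 20 pan-neuronal markers were below 0, with 11 called lower and a median of -0.32. The glial markers had a median of -0.38, with 2 called lower and 1 higher. At 5 µM the pan-neuronal markers summed to 3391, 3205 and 4019 CPM and the glial markers to 1449, 1332 and 1818 CPM, so library 3 stood highest in both. The part of neuronal and glial content in the members' values was not tested. Libraries at 10 µM lay wholly below those at 5 µM for 11 members and wholly above for 2, beside 15.3% and 16.8% of all genes.

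pcdh1a6 (ENSDARG00000104598) read 31.3, 34.2 and 38.7 CPM in control, 36.1, 43.5 and 42.4 at 5 µM, and 28.4, 33.5 and 28.9 at 10 µM. The 10 µM libraries overlapped the controls and not the 5 µM group, which was the highest of the 5 group means. The log2 fold change against 5 µM was -0.43 ± 0.11, with an adjusted p of 0.0202, and against control -0.20 ± 0.11, with an adjusted p of 0.258. pcdh1a4 read 28.6, 27.5 and 27.7 CPM in control, 28.5, 26.8 and 36.3 at 5 µM, and 18.2, 26.9 and 20.7 at 10 µM, so that 10 µM library 3 overlapped the 5 µM group. Its log2 fold change was -0.48 ± 0.15, with an adjusted p of 0.0458, and it missed the threshold in 3 of the 6 fits that leave out a library, where adjusted p ran from 0.0166 to 0.204, and with the 2 groups fitted alone, at an adjusted p of 0.0905. The same range for pcdh1a6 was 0.0128 to 0.0955, with 4 of 6 fits missing it, namely those without 5 µM library 2 or 3 and without 10 µM library 2 or 4. The last pcdh1a gene, pcdh1a3, was low, at 5.89 ± 2.62 CPM in control and 5.40, 6.18 and 5.57 CPM at 10 µM. Its annotated start is the same as that of pcdh1a6, so reads of their first exon fit both.

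In the test for any difference among the 5 groups, pcdh1g33 (adjusted p of 0.0261) and pcdh1g31 (adjusted p of 0.0499) passed, 2 of 33 members beside 7.9% of all genes.

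The C-type members did not pass in any comparison with control. pcdh1gc5 measured 43.1, 34.9 and 45.9 CPM in control and 34.2, 31.2 and 32.6 CPM at 10 µM, groups that did not overlap, with a log2 fold change of -0.34 ± 0.15 and an adjusted p of 0.142. pcdh1gc6 measured 22.0, 16.8 and 17.6 CPM in control and 25.1, 23.1 and 22.1 CPM at 10 µM, which do not overlap either, in the opposite direction, at 0.32 ± 0.19 with an adjusted p of 0.273. In the annotation these genes are neighbours, starting at 21789954 and 21793670. Whether they differ from each other in response was not tested.

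pcdh2g28, the member of highest level, was not called in any test. It read 177.4, 174.0 and 197.8 CPM in control and 161.8, 179.9 and 171.6 CPM at 10 µM, with a log2 fold change of -0.10 ± 0.09 and an adjusted p of 0.506. Its main transcript pcdh2g28-209 ran from 133.7 to 156.8 CPM in control and from 130.1 to 145.6 CPM at 10 µM.

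Among the pcdh2ab genes, only pcdh2ab9 (ENSDARG00000101318) was abundant. It read 46.6, 59.5 and 85.6 CPM in control, 57.3, 114.8 and 129.0 at 0.1 µM, 60.6, 89.1 and 118.7 at 1 µM, 47.8, 80.5 and 84.5 at 5 µM, and 113.8, 97.3 and 105.8 at 10 µM. The 10 µM libraries were above all controls, but the groups at 0.1 and 1 µM spread across nearly the whole range. Against control the log2 fold change was 0.73 ± 0.30, with an adjusted p of 0.115. The other bearer of the symbol, ENSDARG00000089874, had 4.81 ± 1.38 CPM in control and a log2 fold change of -0.09 ± 0.24, and pcdh2ab10, next in level, -0.03 ± 0.20. The remaining tested pcdh2ab genes had means from 10.2 to 43.1 counts per library.

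Of the transcript counts of pcdh2ab9, 69.0% belonged to pcdh2ab9-207, whose annotated 5′ end, 2163454, is also that of pcdh2ac-201, a transcript of the gene pcdh2ac. In the controls pcdh2ab9-207 read 24.3, 42.8 and 58.4 CPM while pcdh2ac-201 read 30.1, 16.2 and 12.3 CPM. At 0.1 µM the values were 30.2, 84.9 and 95.0 CPM for pcdh2ab9-207 and 22.4, 0 and 0 for pcdh2ac-201. At 10 µM they were 81.5, 68.1 and 75.7 CPM for pcdh2ab9-207 and 0, 8.99 and 0 for pcdh2ac-201. In the 5 libraries where pcdh2ac-201 was listed at 0, pcdh2ab9-207 had its 5 highest values. When transcripts of the clusters were regrouped by 5′ end, a choice made after seeing the data, this pair summed to 54.5, 59.0 and 70.6 CPM in control and 81.6, 77.2 and 75.9 CPM at 10 µM, and the log2 fold change became 0.35 ± 0.21 with an adjusted p of 0.293 in edgeR's test.

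**Figure D4:**
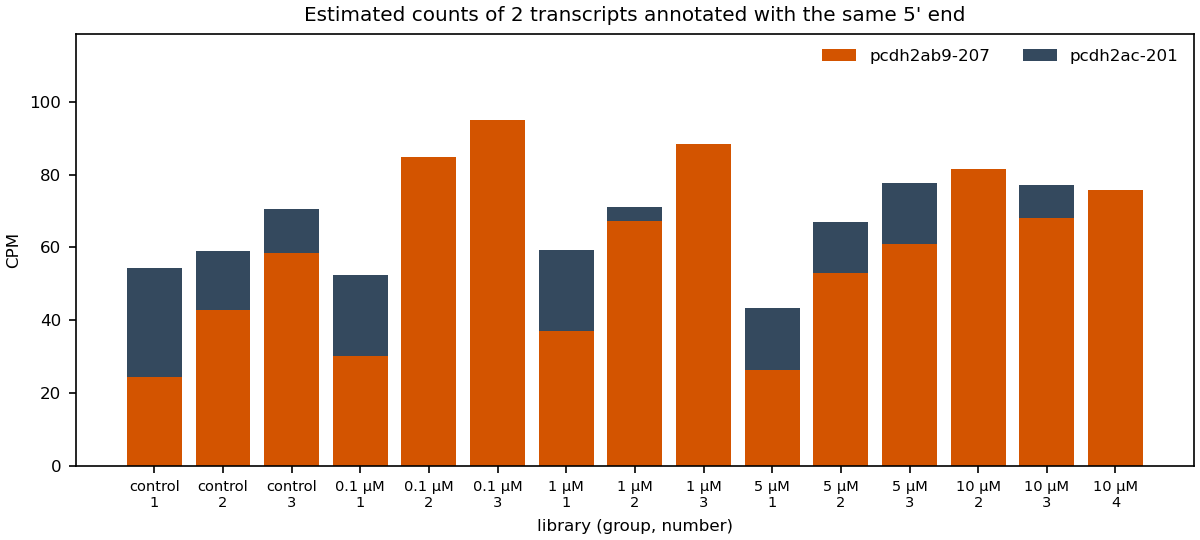
CPM of pcdh2ab9-207 and pcdh2ac-201, stacked, in each of the 15 libraries. These transcripts share an annotated 5′ end, and pcdh2ac-201 is listed at 0 in 5 libraries, in each of which pcdh2ab9-207 is above 75 CPM.

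pcdh2ab11 also shares an annotated 5′ end. It was listed at 0 in all 3 libraries at 0.1 µM, all 3 at 10 µM, 1 control, 1 library at 1 µM and 1 at 5 µM, and at 13 to 35 counts in the others. Against a floor of 3 counts over the group, its 60 control counts would make it at least 18.3-fold lower at 10 µM, for counting error only, yet its adjusted p was 0.0862. Its annotated 5′ end, 2189889, is that of pcdh2ab9-209, and the sum of both was 4.4, 2.3 and 5.7 CPM in control and 5.2, 5.2 and 5.3 CPM at 10 µM. The sum had a log2 fold change of 0.34 ± 0.29 and an adjusted p of 0.458.

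Regrouping by 5′ end the transcripts of the members, together with those of the neighbouring genes pcdh2ac, pcdh2aa1 and pcdh2aa15, gave 54 groups, of which 52 were tested. One of the 54 holds pcdh2aa15 transcripts alone. At 10 µM against control, 5 of 52 groups were lower and 0 higher, beside 14.4% of all units called in either direction. In the fit of genes, the share called lower was 6.65%. They were the starts of pcdh1g33, pcdh1g31 and pcdh1g30, the start of pcdh1g9-204, and that of pcdh2g28-210, a minor transcript with 38 to 66 counts in the controls and 15 to 32 at 10 µM. For pcdh1g9, the called group was pcdh1g9-204, at 18.5, 18.4 and 30.5 CPM in control against 11.8, 9.54 and 15.2 CPM at 10 µM, a log2 fold change of -0.88 ± 0.27 (adjusted p of 0.0427). The transcripts that start at the gene's own start had -0.22 ± 0.15 (adjusted p of 0.337), and the difference between them was not tested. Against 5 µM, 7 of 52 groups were called, 6 lower and 1 higher, beside 15.4% of all units. Taken transcript by transcript, 62 were tested and 2 were called at 10 µM against control, pcdh1g33-201 and pcdh1g31-201, beside 6.25% of all transcripts. Against 5 µM there were 3, beside 6.74%, and in the test of any dose 0, beside 2.4%. Both calls there lapsed without some of the libraries: adjusted p ran from 0.0264 to 0.0981 for pcdh1g33-201 and from 0.041 to 0.168 for pcdh1g31-201.

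Position gives a further description of pcdh1g, with a dividing point chosen after values were seen. The 10 genes whose leading transcript starts at or after that of pcdh1g22, nearest the constant exons, had a median log2 fold change of -0.35 at 10 µM and hold the 4 called genes. The 9 genes farther away had a median of -0.13 and no call, beside 6.65% of all genes called lower. Depth differs in the same way, since mean counts were 55.0 to 548.1 in the nearer genes and 31.0 to 122.5 in the farther ones. Every called member had a mean of 296.5 counts or more, a depth that no farther gene reached. The part of depth in the difference was not tested.

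Genes that act with the clustered protocadherins were counted from lists chosen with earlier results of these data known. Of 28 tested genes of cohesin, CTCF and chromatin regulation, 8 were lower and 0 higher at 10 µM against control, with a median log2 fold change of -0.21. The background was 14.4% of all genes called in either direction and 6.65% called lower. Those of smallest p were dnmt1, the maintenance DNA methyltransferase, at -0.53 ± 0.08 (adjusted p of 0.00155), rad21b, a cohesin subunit, at -0.51 ± 0.11 (adjusted p of 0.00847), and stag1b, another cohesin subunit, at -0.32 ± 0.08 (adjusted p of 0.0136). Of 33 intracellular partners and proteases, 2 were higher and 5 lower, beside the same background, with a median of -0.01. psen2, a catalytic presenilin of gamma-secretase, which cleaves protocadherins in mouse, was higher by 0.65 ± 0.10 (adjusted p of 0.00155), as was wasf2, an actin regulator of the WAVE complex, by 0.39 ± 0.09 (adjusted p of 0.0105). marcksb, an actin-binding substrate of protein kinase C, was lower, at -0.40 ± 0.09 (adjusted p of 0.0113).

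Other cadherins served for comparison. Of 19 tested genes of non-clustered protocadherins, 2 were lower and 0 higher at 10 µM, beside 14.4% of all genes called and 6.65% called lower. A log2 fold change below 0 was found in 19 of 19, with a median of -0.22. The called ones in edgeR's test were pcdh11, at -0.35 ± 0.10 (adjusted p of 0.0288), and pcdh18a, at -0.30 ± 0.09 (adjusted p of 0.0462). pcdh19, whose human counterpart is an epilepsy gene, had -0.26 ± 0.09 (adjusted p of 0.076). Of 16 tested genes from a list of cadherins named cdh, 6 were lower and 1 higher, beside the same background, with a median of -0.33. The higher one was cdh1, the epithelial cadherin, by 0.65 ± 0.13 (adjusted p of 0.00598). Among the lower ones were cdh6, at -0.36 ± 0.07 (adjusted p of 0.00572), and cdh4, at -0.40 ± 0.10 (adjusted p of 0.0169). Of 8 markers of serotonergic and olfactory neurons, cells in which protocadherins act in axon arrangement in mouse, 0 passed in either direction, with a median of -0.20. They were mostly low. Their sum was 50.2 ± 1.41 CPM in control, where slc6a4a had 31.4 CPM, tph2 4.68 CPM and cnga4 1.56 CPM. A miss of the threshold there does not show that these genes did not differ. No gene of any of these 7 lists was called at 0.1, 1 or 5 µM, where 0% of all genes were called.

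Some members differed by the replicate number of the library, and how many did so depended on the groups and the threshold. Over control, 0.1 and 1 µM, 10 of the 33 members differed among libraries numbered 1, 2 and 3, beside 7.2% of 21115 genes. Dose was in the fit of this edgeR test. These groups were chosen because their numbers pair across all genes, so differences among numbers were partly selected for. On simulated counts this test called more unchanged genes than its threshold allows, and at an adjusted p below 0.01 the count was 3 of 33, beside 2.85%. With 5 µM added, 3 of 33 differed, beside 2.59%, and 1 of 33 at an adjusted p below 0.01, beside 1.07%. That fit used the 5 µM numbers as labelled, although libraries 2 and 3 of that group did not follow them. The labels do not say what the numbers mark, and what sets the members' values apart was not tested.

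pcdh2ab9 (ENSDARG00000101318) led, with 54.8 ± 7.34 CPM in libraries numbered 1, 87.8 ± 27.7 in those numbered 2 and 111.1 ± 22.7 in those numbered 3 (mean ± SD over the 3 groups, adjusted p of 7.64e-05). pcdh2ac shares an annotated 5′ end with its main transcript. In numbers 1, 2 and 3, pcdh2ac read 30.1, 16.2 and 12.3 CPM in control. It read 22.4, 0 and 0 at 0.1 µM, and 22.3, 3.80 and 0 at 1 µM. Summed, these genes gave 76.7, 75.6 and 98.0 CPM in control. The same sum was 79.7, 114.8 and 129.0 at 0.1 µM, and 82.9, 92.9 and 118.7 at 1 µM. Whether the sum differs by number was not tested. pcdh1g3 was high in the libraries numbered 2, at 6.15 CPM in control, 7.89 at 0.1 µM and 6.04 at 1 µM, while those numbered 1 and 3 lay between 1.61 and 3.86 CPM (adjusted p of 0.00157). With 5 µM added, its adjusted p was 0.534. The C-type genes also passed at 0.05: pcdh1gc5 was lowest in number 2, at 33.2 ± 2.72 CPM beside 43.2 ± 2.00 and 45.2 ± 3.69 (adjusted p of 0.0107), and pcdh1gc6 was highest in number 1, at 23.0 ± 1.08 CPM beside 16.7 ± 0.488 and 18.8 ± 2.32 (adjusted p of 0.0236). With 5 µM added, pcdh1gc5 no longer passed (adjusted p of 0.146), and the 3 members that did were pcdh2ab9 (0.000315), pcdh1gc6 (0.0183) and pcdh1g30 (0.0247). pcdh1g26 ranged from 24.1 ± 1.89 CPM in number 3 to 34.2 ± 2.75 in number 2. Its level per length varied less within groups. At 0.1 µM it was 27.9 ± 0.82 TPM beside 29.9 ± 4.72 CPM, and at 1 µM 28.9 ± 0.60 TPM beside 29.4 ± 7.12 CPM. Whether its TPM differs by number was not tested. pcdh1g30, one of the genes called at 10 µM, was 35.0 ± 7.85 CPM in number 1 and 24.2 ± 2.84 in number 2, beside 33.3 ± 9.31 CPM over the controls and 20.1 ± 3.15 at 10 µM. The others were pcdh2ab11, pcdh1g1, pcdh1g2 and pcdh1g29. These members were named after their values were seen.

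**Figure D5:**
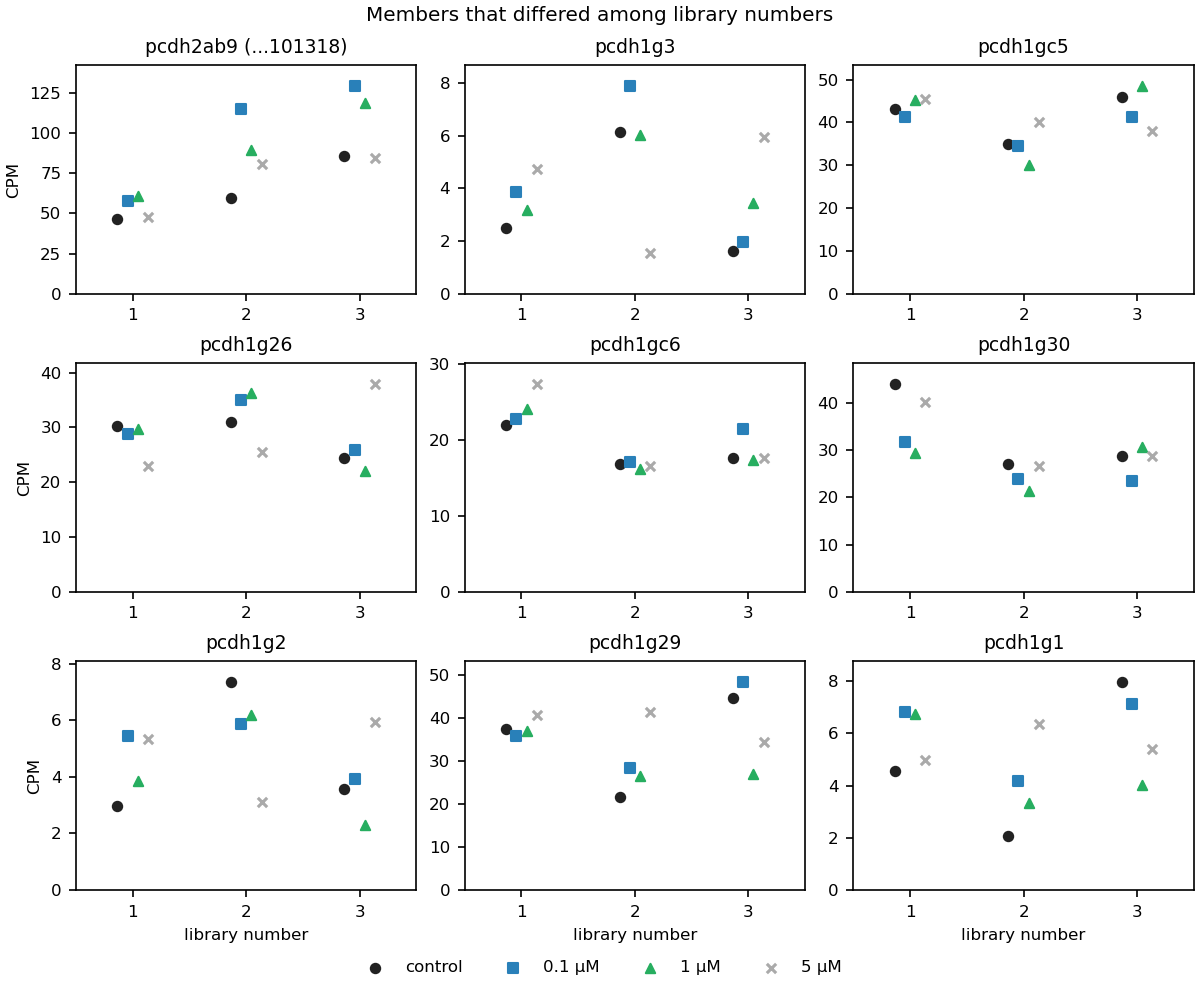
CPM against library number for 9 of the 10 members that differed among numbers over control, 0.1 and 1 µM, with the 5 µM libraries as crosses. pcdh1g3 is above 6 CPM in number 2 of the first 3 groups, whereas its 5 µM value in number 2 is 1.55 CPM and in number 3 is 5.94 CPM.

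The deviations of the 33 members from their group means come from the same counts as the number test and are not separate evidence. Between libraries of the same number in control, 0.1 and 1 µM, Pearson's r over the members ran from 0.06 to 0.79, with a median of 0.49. Between libraries of different numbers it ran from -0.72 to 0.20. Over all genes, r ran from 0.19 to 0.45 for the same number, with a median of 0.34, and from -0.30 to -0.002 for different numbers. Points share constant exons and library scaling, and deviations within a group sum to about 0, so these are descriptions. In the 5 µM group, library 1 had r of 0.14 to 0.64 with the libraries numbered 1. With those numbered 2 its r was 0.07 to 0.45, a range that overlaps the first. With those numbered 3 it was -0.72 to -0.34. Library 2 of that group had r of -0.67 to -0.30 with the libraries numbered 2 and 0.49 to 0.85 with those numbered 3. Library 3 had r of 0.36 to 0.47 with those numbered 2 and -0.40 to -0.09 with those numbered 3. The crossing was not particular to the members. Over all genes, library 2 had r of 0.11 to 0.31 with those numbered 3, and library 3 had 0.17 to 0.23 with those numbered 2.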

How the data were processed

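RNA of whole larvae was measured in 15 libraries, 3 in each of 5 groups taken from the labels. Read counts, RPKM and TPM per gene, and read counts and TPM per transcript, were deposited by the authors, per the file headers. The deposited counts are whole numbers and were treated as estimated counts. No source used here names the aligner, counter or genome build. TPM served for levels between genes, and RPKM, as the authors gave it, only to recover gene length. Not used here were 24 per-sample columns, among them TPM and RPKM at 10 µM. Columns of the 10 µM group carry the numbers 2, 3 and 4, unlike its titles, so they were matched to the group only and never paired.

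Counts were fitted with edgeR 4.0.16 (R 4.3.3), using TMM scaling, filterByExpr and 1 quasi-likelihood model of 5 group means. Of 32520 genes, 21477 were tested, two-sided, with Benjamini-Hochberg adjustment over all of them and a threshold of 0.05. SE was the absolute log2 fold change over the root of F. CPM used TMM-scaled totals. Bounds and counts cover counting error only. The scripts were tested on simulated counts. DESeq2 1.42.0, other scaling and filters, the 2 groups alone, transcript sums and left-out libraries were alternatives. A length correction, 5′ end groups (starts within 1000 bases), the transcript fit and the test of library numbers were chosen after seeing the data.

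Named are members past the threshold, the highest 3 per subcluster by CPM, those of smallest p (3 at 10 µM against control, 2 per other test) and the C-type genes, besides up to 3 genes per list. Members and lists were chosen with earlier results of these data known.

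Same-numbered libraries of control, 0.1 and 1 µM deviated together across all genes, with r of 0.19 to 0.45, so their numbers pair. At 5 µM, library 1 deviated with those numbered 1 (r of 0.30 to 0.40). Libraries 2 and 3 had r of -0.14 to 0.07 with their own numbers, so the numbers of that group pair only in part. The block over control and 0.1 to 5 µM and the number test with 5 µM added still used them as labelled. No sequence is printed.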

Additional observations from a re-analysis of the deposited data

How the results depend on the processing

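The absence of called members at 0.1, 1 and 5 µM held under every alternative run. For 10 µM against control, the 4 called members were again called with DESeq2 and with DESeq2's size factors, without a filter, with a filter of 5 CPM in 3 libraries, and from transcript sums. Removing the length trend left 3 (pcdh1g9 lost), and fitting the 2 groups alone gave 6. Leaving out 1 library gave 1 to 5 calls, with 1 without 10 µM library 2 and 2 without control library 1, control library 3 or 10 µM library 4. For 10 against 5 µM the 6 calls became 1 to 5 when 1 library was left out, with 1 without 5 µM library 3 or 10 µM library 2, and 3 without 10 µM library 4. With the 2 groups alone the count was again 6, though pcdh1a4 was lost (adjusted p of 0.0905). The test of any dose, with 2 calls, gave 1 with the stricter filter or the length trend removed, 3 with DESeq2, and 0 to 3 without 1 library (0 without 10 µM library 2, 3 or 4). With the replicate block it gave 0 over control and 0.1 to 5 µM and 0 over control, 0.1 and 1 µM, and without the block 0 over the same 12 libraries. These fits hold no 10 µM library. The block changed no other call. The summed CPM of all members at 10 µM was 628.3 on unscaled totals, beside 610.6. No named member reversed direction in any alternative run, but removing the length trend left 25 of all 33 members below 0 at 10 µM against control, instead of 27. Of the 33 tested members, 18 had a mean under 100 counts, and a miss of the threshold does not show that a member did not differ.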
